A study of Homo sapiens with 4 samples.

Results

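The CEACAM genes encode cell surface glycoproteins of the immunoglobulin superfamily, and 7 of them (CEACAM1, CEACAM3, CEACAM5, CEACAM6, CEACAM7, CEACAM8 and CEACAM19) were followed in MCF10A cells with and without a stably raised level of the transcription factor HSF1. The members were taken by name from the 63856 genes of the count table, and the choice of the family rested on the measured rise of CEACAM6 in the same comparison. Their values are therefore a description of these libraries and are given without p-values or calls. Of the 7 members, 5 had a count in at least 1 library and 3 (CEACAM1, CEACAM6 and CEACAM19) passed the filter on low counts.

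CEACAM proteins bind each other across cell contacts, either to their own kind or to other members, and several are docking points for bacteria on mucosal surfaces. CEACAM1, CEACAM3 and CEACAM19 span the membrane, whereas CEACAM5, CEACAM6, CEACAM7 and CEACAM8 are held in it by a glycosylphosphatidylinositol (GPI) anchor. CEACAM5 is the carcinoembryonic antigen that gave the family its name. CEACAM1 is known from the lumen-facing membrane of mammary ducts, and its cytoplasmic tail recruits tyrosine phosphatases.

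MCF10A is a non-tumorigenic human mammary epithelial cell line. It was sequenced as wild type (WT) cells and as HSF1-pLVX cells, which carry HSF1 in the lentiviral vector pLVX and were selected with puromycin, with 2 libraries of each. The medium of both variants contained horse serum, EGF, insulin, hydrocortisone and cholera toxin. None of the libraries was of cells with the empty vector, and effects of HSF1 and of transduction and selection cannot be told apart. The libraries held between 18688109 and 24184285 counts, and levels are given as CPM, counts scaled to a common library size after TMM normalization. The study calls the replicates biological, but the labels do not say whether they were separate cultures. The p-values given for other genes rest on the spread between these libraries as shared across genes. They do not measure each gene's own spread. HSF1 itself was at 200.4 and 189 CPM in the WT libraries and at 982 and 999 CPM in the HSF1-pLVX libraries. The 9 markers listed for the basal mammary epithelium, among them TP63, KRT5 and KRT14, were all counted in every library. So were the luminal keratins KRT7, KRT8 and KRT18. By cytometry, the study found WT MCF10A cells enriched in luminal progenitors positive for EPCAM and ITGA6, which are both in the basal list.

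The stretches of 250 bases before the start sites of 3 members are shown because they belong to the member with the largest change, to the member closest to it in coding sequence and to a member whose groups overlapped. The sequences are those of RefSeq on GRCh38.p14, and 6 of the 7 members were found in that table, all but CEACAM19. They read 5′ to 3′ on the strand of the gene. CEACAM6 is at chr19:41755280-41755529 on the plus strand, CEACAM5 at chr19:41708376-41708625 on the plus strand and CEACAM1 at chr19:42528482-42528731 on the minus strand. Capitals mark matches to the motifs described after them.
CEACAM6: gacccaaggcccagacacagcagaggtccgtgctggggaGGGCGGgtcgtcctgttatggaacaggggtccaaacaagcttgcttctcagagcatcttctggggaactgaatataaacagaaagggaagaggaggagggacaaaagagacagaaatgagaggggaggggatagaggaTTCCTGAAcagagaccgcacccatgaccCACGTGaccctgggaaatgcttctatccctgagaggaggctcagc
CEACAM5: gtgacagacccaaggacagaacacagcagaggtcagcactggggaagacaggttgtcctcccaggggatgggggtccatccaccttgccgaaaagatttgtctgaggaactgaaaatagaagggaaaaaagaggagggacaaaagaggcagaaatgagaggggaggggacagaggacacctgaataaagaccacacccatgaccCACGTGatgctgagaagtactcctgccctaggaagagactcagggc
CEACAM1: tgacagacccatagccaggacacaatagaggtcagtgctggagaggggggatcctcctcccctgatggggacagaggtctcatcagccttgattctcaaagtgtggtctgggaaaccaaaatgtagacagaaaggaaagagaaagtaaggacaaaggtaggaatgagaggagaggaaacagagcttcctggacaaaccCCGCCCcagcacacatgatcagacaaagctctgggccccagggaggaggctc

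HSF1 binds heat shock elements, runs of the unit NGAAN in alternating orientation. Both orders of a pair of units, GAANNTTC and TTCNNGAA, were searched, along with both orders of 3 units, GAANNTTCNNGAA and TTCNNGAANNTTC, on both strands. The pairs read the same on either strand, and the 2 orders of 3 units are each other's reverse complement. The CEACAM6 stretch held TTCCTGAA, a match to TTCNNGAA, from 73 to 66 bases before the start. No other member's stretch held a pair, and none of the 6 held 3 units. Among all 35116 promoter stretches of the same length, 6.62% held TTCNNGAA, 5.78% held GAANNTTC, 11.6% held either, and 0.441% held 3 units. No 2 of the matches shown in capitals overlap.

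The E-box CACGTG, bound by USF1 and USF2, lay from 45 to 40 bases before the start of CEACAM6 and from 46 to 41 bases before that of CEACAM5. It was in none of the other 4 stretches and in 6.34% of all stretches. The GC box GGGCGG, searched on both strands and found in 42.6% of all stretches, occurred in those of CEACAM6, CEACAM1 and CEACAM8. Aligned end to end, the stretch of CEACAM6 was identical to that of CEACAM5 at 78.5% of 242 aligned bases and to that of CEACAM1 at 74.4% of 238. It was closer to those of CEACAM3 (82.1%) and CEACAM7 (80.2%), the members with no counts. Such matches are letters in a window, and no binding was measured here.

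CEACAM6 (ENSG00000086548.8, chr19:41750977-41772208 on the plus strand, hg38), which is found at raised levels in many carcinomas, was near the detection limit in WT cells and well above it in HSF1-pLVX cells. It had 6 and 7 counts in WT replicates 1 and 2 and 381 and 257 in HSF1-pLVX replicates 1 and 2, or 0.320, 0.377, 15.2 and 12.9 CPM. Both HSF1-pLVX libraries stood far above both WT libraries. The mean was 0.348 ± 0.0404 CPM in WT and 14.1 ± 1.58 CPM with HSF1-pLVX (SD, n = 2 each). This is a ratio of summed levels of 40.8 with a 95% counting interval of 23.7 to 77.0. Within replicates 1 and 2 the ratio was 47.5 and 34.3. The fitted log2 fold change, with its standard error (SE), was 5.31 ± 0.28, the 34th highest of the 15830 tested genes. On the scale of CPM per kb of counted length, 3.85% of tested genes were below CEACAM6 in WT cells and 57.4% in HSF1-pLVX cells.

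CEACAM5 (ENSG00000105388.15, chr19:41708585-41729798), the gene next to CEACAM6 in the family cluster and carrier of the other E-box described above, had few counts everywhere. There were 0 and 1 counts in the WT libraries and 15 and 10 in the HSF1-pLVX libraries, or 0, 0.0538, 0.597 and 0.503 CPM. The groups did not overlap, but the gene did not reach the filter on low counts. The ratio was 20.8 with a 95% counting interval of 3.40 to 853. In HSF1-pLVX cells CEACAM5 remained at a level per length of 0.164 ± 0.0199 CPM per kb against 4.61 ± 0.519 for CEACAM6.

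CEACAM1 (ENSG00000079385.21, chr19:42507304-42561234 on the minus strand) was the highest member in WT cells on the per-length scale. Its level was 25.1 and 23.9 CPM in WT and 27.4 and 25.1 CPM in HSF1-pLVX libraries. The groups overlapped, as WT replicate 1 was marginally above HSF1-pLVX replicate 2. The log2 fold change was 0.10 ± 0.12 (SE), and the counting interval of the ratio ran from 0.985 to 1.17.

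CEACAM19 (ENSG00000186567.12, chr19:44662278-44684359 on the plus strand), a less studied transmembrane member, was moderately higher. It was at 21.0 and 21.3 CPM in WT and at 28.0 and 29.4 CPM in HSF1-pLVX libraries. The groups did not overlap, and the spread within each was small. The share of all tested genes without such an overlap was not computed, here or for CEACAM5 and CEACAM6. The means were 21.2 ± 0.229 and 28.7 ± 0.958 CPM (SD, n = 2 each), and the log2 fold change was 0.44 ± 0.12 (SE). Over all tested genes the log2 fold changes had an SD of 1.30.

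The members best known from other cell types were absent or nearly so. CEACAM3, a receptor of granulocytes that takes up bacteria, and CEACAM7, a gene of the colonic epithelium, had 0 counts in all 4 libraries, which allows levels of up to 0.119 to 0.161 CPM (3 counts per library, counting error only). CEACAM8, a granulocyte antigen that binds CEACAM6, had 0 counts in WT and 1 in each HSF1-pLVX library. Both groups were under the limit of 3 counts, and no ratio is given. At this depth these genes could not be told from unexpressed ones.

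**Figure D1:**
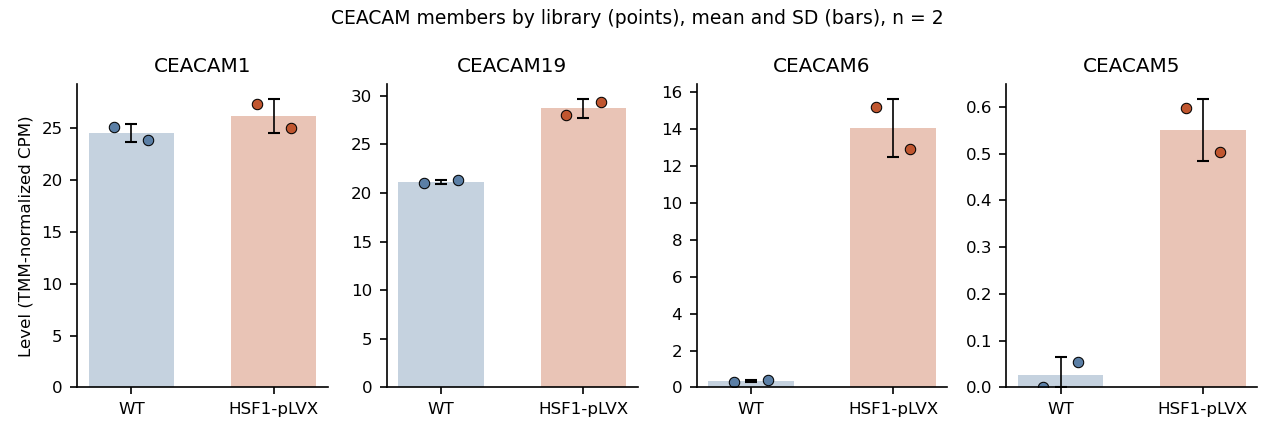
Level in TMM-normalized CPM of the 4 members with more than 2 counts in all, each panel on its own axis from 0. Points are libraries, bars are means and error bars are SD (n = 2, cut off at 0). CEACAM6 went from 0.320 and 0.377 in WT to 15.2 and 12.9 in HSF1-pLVX cells, whereas the points of CEACAM1 overlap.

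With the call at an adjusted p of 0.05 in edgeR's quasi-likelihood test, 32.5% of all tested genes were called higher and 32.7% lower in HSF1-pLVX cells. Since the family was chosen on this contrast, its members are not counted against these shares. The study's own rule takes a ratio above 2.0 in each of the replicates, applied to the normalized values that the authors deposited, which 5.0% of its 22321 rows pass. On those values the ratios of CEACAM6 were 15.9 and 12.9 and those of CEACAM5 were 3.06 and 1.98, so CEACAM5 lay just outside the rule. Ratios of CEACAM1 were 1.05 and 1.04, and those of CEACAM19 1.28 and 1.36. With ratios of scaled counts plus 1, CEACAM5 also passed, at 13.0 and 5.32. The deposited scale compresses differences of genes with few counts, and the ratios on it are smaller than those of the counts.

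Because CEACAM paralogs resemble each other, their levels were also summed. The 7 members together had 872 and 848 counts in WT and 1788 and 1350 in HSF1-pLVX libraries, or 46.5, 45.6, 71.2 and 68.0 CPM. The sum was higher in both HSF1-pLVX libraries, at 69.6 ± 2.31 CPM against 46.0 ± 0.575 (SD, n = 2 each). Its ratio was 1.51, with a 95% counting interval of 1.43 to 1.61, and 1.53 and 1.49 within replicates 1 and 2. Without CEACAM1 and CEACAM19, the members with most WT counts, the ratio of the other 5 was 39.1, from 14 summed counts in WT to 665 in HSF1-pLVX cells. Of these counts, 13 in WT and 638 in HSF1-pLVX cells were of CEACAM6, so this ratio is nearly that of CEACAM6 alone.

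The make-up of the family shifted with it. CEACAM6 made up 1.21% and 1.44% of the summed level per length in WT libraries and 32.1% and 29.0% in HSF1-pLVX libraries. The share of CEACAM1 was 52.4% and 50.5% in WT and 31.9% and 31.1% in HSF1-pLVX libraries, although its own level overlapped between the variants. In WT cells the order of levels per length was CEACAM1 (4.44 ± 0.160 CPM per kb), CEACAM19 (4.07 ± 0.0440), CEACAM6 (0.114 ± 0.0132) and CEACAM5, and the libraries of the first 2 did not overlap. In HSF1-pLVX cells it was CEACAM19 (5.52 ± 0.184), CEACAM1 (4.75 ± 0.294), CEACAM6 (4.61 ± 0.519) and CEACAM5, and there the libraries of CEACAM1 and CEACAM6 overlapped.

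**Figure D2:**
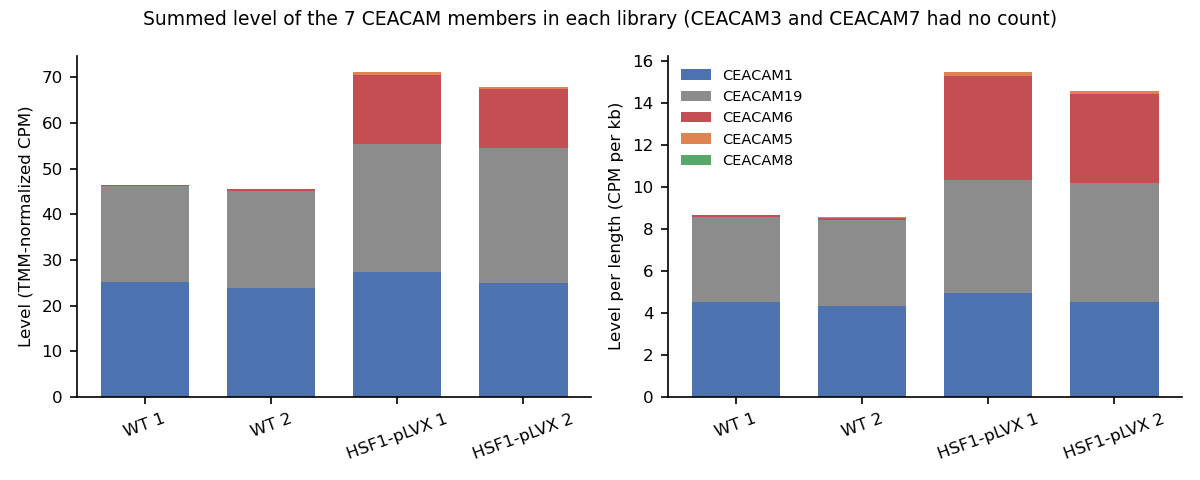
Stacked levels of the members in each library, in TMM-normalized CPM on the left and in CPM per kb of counted length on the right; each bar is 1 library. The sum rose from 46.5 and 45.6 to 71.2 and 68.0 CPM, with most of the added height in the CEACAM6 segment.

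How far paralogs could take each other's reads was read from the sequence of the counted exons. The coding sequence of CEACAM6 was identical to that of CEACAM5 at 90.4% of aligned bases, to that of CEACAM1 at 89.2% and to that of CEACAM8 at 87.2%, but to that of CEACAM19 at 62.0%. Even so, of the 2452 windows of 76 bases (the read length) in CEACAM6 exons, 3 occurred exactly in another CEACAM or PSG exon, in CEACAM8. For every member the share of such windows was 0.143% or less, with 0 for CEACAM1, CEACAM7 and CEACAM19. Only windows inside single exons were searched, and only on chromosome 19, so reads across splice junctions and copies elsewhere were left out. Reads with mismatches were not considered, and how multi-mapped reads were counted is not given in the sources used here.

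Some exons also overlap other genes of the count table. CEACAM6 shares 172 of its 3052 counted bases and CEACAM5 544 of 3351 with ENSG00000267881 on the same strand, which had 0 counts in all libraries. CEACAM1 shares 185 bases with LIPE-AS1 on the opposite strand, which had 7 to 13 counts per library. CEACAM19 shares 121 bases with PVR on the same strand, and PVR had 2465, 2489, 2129 and 1612 counts in WT 1, WT 2, HSF1-pLVX 1 and HSF1-pLVX 2. Whether the counting used strand, or dropped reads that lie on more than 1 gene, is not given in the sources used here.

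The rest of the CEACAM genes stayed near 0. Of 18 further CEACAM genes and pseudogenes in the table, 9 had a count, none passed the filter, and no library held more than 6 counts of any of them. These included CEACAM20 (1 count in all), the pseudogene CEACAM22P (1 in WT 1 and 1 in each HSF1-pLVX library) and the antisense gene CEACAM16-AS1 (0 and 1 in WT, 4 and 1 in HSF1-pLVX libraries). Another pseudogene, CEACAMP10, had 4 and 6 counts in WT and 0 in both HSF1-pLVX libraries, and the pseudogenes CEACAMP6, CEACAMP7, CEACAMP8, CEACAMP9 and CEACAMP11 had at most 2 in any library.

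The genes around CEACAM6 on chromosome 19 moved in both directions. Of 105 genes within 1 Mb, members left out, 37 were tested, 11 were called higher (29.7%) and 10 lower (27.0%), both close to the 32.5% and 32.7% of all tested genes, with a median log2 fold change of -0.10 against 0.02 over all tested genes. The tested neighbour nearest on the left, DMAC2, was not called (log2 fold change -0.18), and the nearest on the right, RPS19, a protein of the small ribosomal subunit, was higher by 0.80. The largest rises were of TMEM91 (2.50), CXCL17 (2.13), a mucosal chemokine, and POU2F2 (1.87), a transcription factor of B cells. Among those that fell were CYP2S1 (-1.41), a cytochrome P450, and MIA (-1.35). Each of these named changes except that of DMAC2 passed an adjusted p of 0.05 in edgeR's quasi-likelihood test. None reached that of CEACAM6, the gene on whose rise the family was chosen. Without HSF1-pLVX replicate 1, fewer neighbours were called lower, and so were fewer of all tested genes.

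Further out, mostly beyond 1 Mb, lie the pregnancy-specific glycoprotein (PSG) genes, the sister branch of the CEACAM genes, which were looked at after their values were seen. Of 10 PSG genes counted, 7 were tested, and all 7 were called lower, against 32.7% of all tested genes. Their summed level was 264 and 255 CPM in the WT libraries and 2.51 and 2.37 CPM in the HSF1-pLVX libraries. CEACAM6 and the PSG genes lie in the same stretch of chromosome 19 and differed between the variants in opposite directions. The split of reads among the PSG genes themselves is uncertain, as they are close copies.

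**Figure D3:**
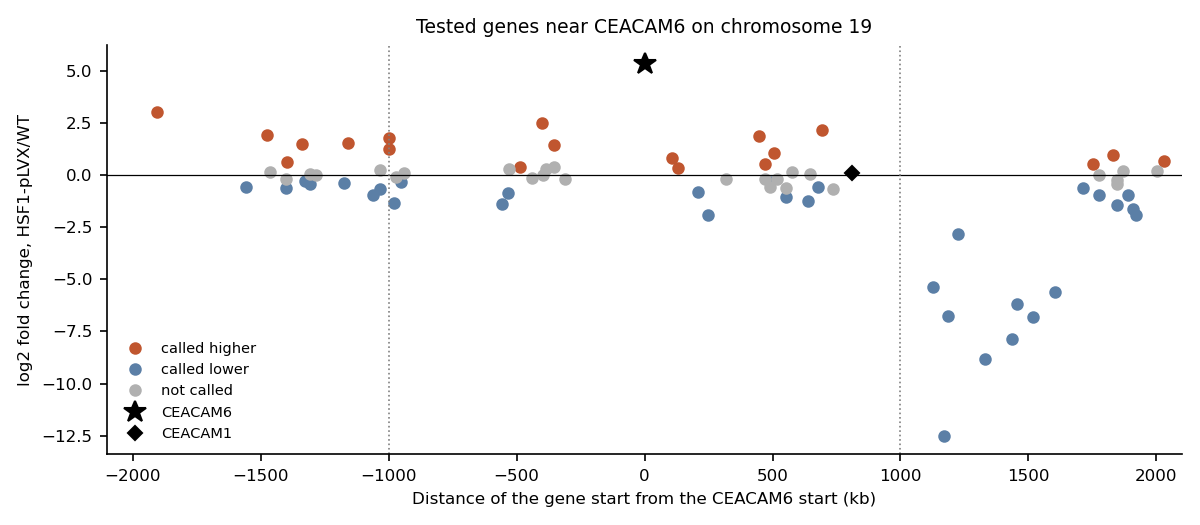
log2 fold change, HSF1-pLVX over WT, of each tested gene within 2 Mb of CEACAM6 against the distance in kb of its start from that of CEACAM6; dotted lines mark 1 Mb. Genes called higher and lower are mixed within 1 Mb, and the group far below 0 to the right holds the PSG genes. CEACAM6 (star), on whose rise the family was chosen, is above them all at 5.31.

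Genes that build and remodel GPI anchors, which CEACAM6 and CEACAM5 need to reach the surface, showed few calls. Of 27 tested, 3 were higher and 6 lower (11.1% and 22.2%, against the 32.5% and 32.7% of all tested genes), with a median log2 fold change of -0.05. PGAP1, which removes a fatty acid from new anchors, was higher by 1.96 (SE 0.20, adjusted p = 4.42e-22 in edgeR's quasi-likelihood test), PIGF by 0.67 and PIGX by 0.49. PIGQ and PIGA, which act in the first step of anchor synthesis, changed by -0.72 and -0.50, and PIGZ by -0.57. Without HSF1-pLVX replicate 2, fewer were called lower, and so were fewer of all tested genes.

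Genes of proteins known to bind CEACAM proteins or carry their signals were more often lower than higher. Of 24 tested, 5 were higher (20.8%, against 32.5% of all tested genes) and 13 lower (54.2%, against 32.7%), with a median log2 fold change of -0.30. CD1D, an antigen-presenting molecule that binds CEACAM5, was at 0.320 and 0.269 CPM in WT and 8.52 and 9.82 CPM in HSF1-pLVX libraries, a log2 fold change of 4.93 (SE 0.32, adjusted p = 8.90e-52 in edgeR's quasi-likelihood test). EGFR was higher by 0.84 and HNRNPM, a surface receptor for CEACAM5 in the liver, by 0.75. HAVCR2, a ligand of CEACAM1, changed by -4.02 from a low level of 0.959 and 1.45 CPM, ANXA2 by -1.34 and CALM2, one of the calmodulin genes, by -1.03. PTPN6, a phosphatase bound by CEACAM1, and the kinase SRC were not called (0.10 and -0.02). Without HSF1-pLVX replicate 2 fewer were called in both directions, and so were fewer of all tested genes.

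Of 12 tested genes of transcription factors known to act on CEACAM promoters, 4 were higher (33.3%, close to the 32.5% of all tested genes) and 6 lower (50.0%, against 32.7%), and the median log2 fold change was -0.23. SMAD3, a transducer of TGF-beta signals, was higher by 0.98, IRF1, an interferon-responsive factor, by 0.92 and NFKB1 by 0.74. SOX9 changed by -1.32, TFAP2C by -0.99 and HIF1A by -0.81, and these 6 changes passed an adjusted p of 0.05 in edgeR's quasi-likelihood test. USF1, a binder of the E-box, changed by -0.27 and USF2 was not called (-0.03). The intestinal factors CDX1 and CDX2 had 0 counts in all libraries.

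**Figure D4:**
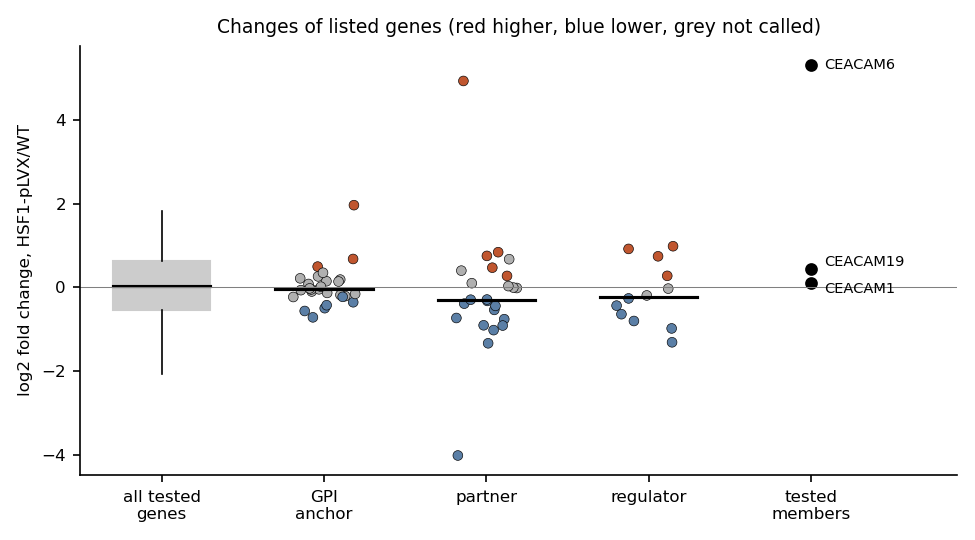
log2 fold change, HSF1-pLVX over WT, of listed genes (points, black line at the median) beside all tested genes (grey box, quartiles; whiskers, 5th to 95th percentile). CEACAM6, on whose rise the family was chosen, lies beyond the whiskers at 5.31, and the medians of the lists lie between -0.30 and -0.05.

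Markers of other cell types were read in the same libraries. Of 11 granulocyte markers, 7 were at 0 in all libraries, ELANE, AZU1 and PTPRC among them. The summed level of the 11 was 0.639 and 0.538 CPM in WT and 5.38 and 7.35 CPM in HSF1-pLVX libraries. LTF, which epithelia also express, held 0.107 and 0.0538 CPM of it in WT and 4.74 and 6.80 CPM in HSF1-pLVX libraries. LTF was the only 1 of the 11 tested and was higher by 6.06. Of 8 tested markers of luminal or mucosal epithelium, 6 were lower and none higher, against 32.7% and 32.5% of all tested genes, with KRT8 at -3.25, KRT18 at -1.74 and CLDN4 at -1.68, and their summed level was 11221 and 11055 CPM in WT and 4428 and 3800 CPM in HSF1-pLVX libraries. Of the 9 basal markers, 4 were higher (44.4%) and 5 lower (55.6%), against 32.5% and 32.7% of all tested genes, led by TP63 (3.48) and KRT14 (-3.55). The 5 include CDH1 (-1.43) and EPCAM (-1.37), which the study uses as an epithelial marker and as a mark of luminal progenitors. Of 8 fibroblast markers 2 were tested. DCN was higher by 5.17 and COL1A1 was not called (0.20), and the other 6 had too few counts for the test. The part of these shifts in the rise of CEACAM6 was not tested, and in bulk RNA, fewer cells of a type and less RNA per cell cannot be told apart.

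The 5 tested genes whose profile over the 4 libraries was nearest that of CEACAM6, by Euclidean distance of centred log2 CPM, were TENM2 (0.304), SDK2 (0.305), IP6K3 (0.338), S100A7 (0.354) and FRG1 (0.450), which had 0 counts in both WT libraries. TENM2 and SDK2 encode adhesion molecules of neurons, and S100A7 is psoriasin of stratified epithelia. SDK2 was at 0.906 and 0.861 CPM in WT and 28.5 and 30.8 CPM in HSF1-pLVX libraries. None lies on chromosome 19, and 4 libraries in 2 groups make the likeness mainly one of the size of the change.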

How the data were processed

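RNA-seq of total RNA depleted of ribosomal RNA (paired reads of 76 bases) was compared between 2 WT and 2 HSF1-pLVX libraries, grouped by their labels. The authors aligned reads to hg38 with hisat2 (version 2.0.5), processed them with Samtools (version 1.13) and deposited raw counts per gene of GENCODE release 26 made with featureCounts (version 1.6.5). They also deposited log2-like values normalized with DESeq2 (version 1.32.0), which a blind variance-stabilizing transformation of the counts matched to within 5.8e-05 for the members, and these were used for its ratio rule alone.

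The counts were normalized by TMM, filtered by the default settings of filterByExpr and fitted in edgeR 4.0.16 (R 4.3.3). Its quasi-likelihood test took the replicate number as a blocking factor, since the study takes ratios within replicates, followed by Benjamini-Hochberg adjustment over 15830 genes, called at 0.05. With the block the prior degrees of freedom were infinite, so each gene's test relied on the spread shared across genes. An exact permutation of 2 against 2 libraries cannot give a p below 0.333. Replicate pairs differed by more than sampling noise (chi-square per degree of freedom 6.62 in WT and 8.04 in HSF1-pLVX). On simulated counts of about 15010 genes with 2-fold changes of 200, the test recovered 92%, with 5.4% false calls. The share of false calls with as many changes as the 5138 higher and 5171 lower calls in these libraries was not tested. That share was also not tested for genes whose own spread differs from the shared one. Recovery of changes in genes at low levels was not tested either.

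The members and gene lists were chosen with earlier results of these data known. The members were part of this fit, and their log2 fold changes and SE come from it, but their p-values and calls are not used. Named from each list were the 3 called genes with the largest fold in each direction, all other CEACAM genes with a count, and the 5 tested genes nearest CEACAM6 in profile (pseudocount 0.1 CPM), except for 1 gene that is not reported here. Additional genes of the lists were named with their values where a sentence needed them, after these were seen. Counting intervals are 95% and, like the limit of 3 counts, cover counting error only. Exons are those of the count table, read from hg38, and coding sequences are those of the canonical transcripts in GENCODE release 44. Alternatives were another normalization, no filter, DESeq2 1.42.0, no block and each library left out. Western blots, cytometry and other cell lines were not analysed here.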

Additional observations from a re-analysis of the deposited data

How the results depend on the processing

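Of 132 alternative values of 17 results, 107 were scored as unchanged, which for counts of called genes means within 1.5-fold of the main count. For log2 fold changes and the summed ratio it means a shift below the spread between the replicate pairs. Counts of called genes cannot be scored as reversed, and none of the other values was. The log2 fold change of CEACAM6 stayed between 5.19 and 5.43 in every alternative run. DESeq2 called 3318 of all tested genes higher and 3737 lower. It called 1 GPI anchor gene higher and 1 lower, and 4 genes within 1 Mb of CEACAM6 lower. With library size as the only scaling, 2 GPI anchor genes and 4473 of all tested genes were called lower. The log2 fold change was then 0.16 for CEACAM1 and 0.50 for CEACAM19, and the summed ratio was 1.58. Leaving out each library in turn gave 1 to 5 GPI anchor genes lower, 3 to 5 partner genes higher and 7 to 13 lower, and 5 to 13 genes within 1 Mb lower. It gave 0.037 to 0.17 for CEACAM1, 0.42 to 0.48 for CEACAM19 and 1.48 to 1.55 for the summed ratio. With 1 library in a group, that library is assumed to vary like the others. The summed ratio was 1.64 without CEACAM19 and 39.1 without CEACAM1 and CEACAM19, and the share of CEACAM6 in HSF1-pLVX cells was 48.3% without CEACAM19. Within 2 Mb, 77 genes were tested, 19 were called higher (24.7%) and 32 lower (41.6%), against 32.5% and 32.7% of all tested genes. The lower ones include PSG genes. With scaled counts plus 1, CEACAM5 passed the ratio rule beside CEACAM6, and the share of all genes that pass on that scale was not computed. The window of 2 Mb, the sum without CEACAM1 and CEACAM19 and the crossed pairing were chosen after seeing the data. The cause of these shifts was not tested, beyond the fewer or other genes each alternative takes in.

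Without the replicate block, 5175 genes were called higher and 5253 lower. Same-numbered libraries had deviations from the group means correlated at -0.015 over the tested genes and at -0.114 over those above 8 CPM (9672 genes), so the numbers are not shown to pair the libraries. A crossed pairing gave 5429 and 5487 calls. Depth limits CEACAM3, CEACAM5, CEACAM7 and CEACAM8, whose WT counts were 0 or 1 in each library, and CEACAM6 in WT cells, where 13 counts in all set the size of its ratio.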
